A study of Mus musculus with 6 samples.

Results

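The genes described here are 10 genes of the amino acid stress response: the transcription factor gene Atf4, its partner and target Ddit3, and the targets Ddit4, Trib3, Asns, Chac1, Sesn2, Phgdh, Psat1 and Mthfd2. They were chosen by name and not by a threshold on their values, and all 10 had a probe on the array, of 16593 genes with a named probe. 14 probes covered them, 3 for Asns, 2 each for Ddit3 and Sesn2 and 1 for each of the others. The tissue was frontal cortex from male embryos of C57BL/6J mice, taken on embryonic day 15, when cortical neurons are being born. 3 transgenic embryos carried a BAC clone, RP24-333C15, a large genomic insert that spans Cyfip1, and 3 wild-type littermates (WT in the labels) were the controls. The labels do not say how many transgenic lines were used or how many copies of the insert were carried, and the insert was introduced with its genomic surroundings rather than under a chosen promoter. Each embryo had 1 Illumina MouseRef-8 v2.0 array of its own, on which a bead carries the probe and the RNA a single dye, and precision throughout is limited by how few arrays there are.

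Cells that run short of an amino acid, fold proteins badly, detect double-stranded RNA or lack haem phosphorylate the initiation factor eIF2. General translation then slows while the ATF4 messenger is translated more, and ATF4 protein, paired with C/EBP family proteins, binds the C/EBP-ATF response element of genes for amino acid synthesis, transport and charging of tRNA. mTORC1, the kinase complex that the study's title names, also raises ATF4 translation, and the products of Sesn2 and Ddit4 restrain mTORC1. Transcript levels show the targets' response, whereas the control of ATF4 itself lies largely in translation, which arrays do not measure.

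The core of that element, searched as TGATGNAA on both strands, occurred in the RefSeq promoters (assembly GRCm38.p6, 250 bases before to 50 after the start) of 3 of the 10 genes, Asns, Chac1 and Trib3. It occurred in 3.97% of all 32851 promoters in that table and in 4.51% of genes. Of longer lists of the same pathway, 8 of 28 further ATF4 and CHOP targets and 5 of 11 aminoacyl-tRNA synthetase genes held it, against 0 of 15 serine, glycine and folate enzyme genes. A match is a description of the letters in this window, and the remaining members may carry such elements elsewhere. The upstream stretches of Asns and Chac1 are shown because these 2 genes share the pattern over the embryos described below, and Trib3 is shown by a short window. Bases run 5′ to 3′ along the gene's strand and capitals mark the match. The Asns stretch is chr6:7693210-7693459 (minus strand), its match starting 23 bases before the annotated start. That of Chac1 is chr2:119350992-119351241 (plus strand), its match, on the opposite strand, starting 193 bases before the start. The Trib3 window is chr2:152344028-152344057 (minus strand), and its match begins at base 15 of the transcript on the opposite strand.
Asns: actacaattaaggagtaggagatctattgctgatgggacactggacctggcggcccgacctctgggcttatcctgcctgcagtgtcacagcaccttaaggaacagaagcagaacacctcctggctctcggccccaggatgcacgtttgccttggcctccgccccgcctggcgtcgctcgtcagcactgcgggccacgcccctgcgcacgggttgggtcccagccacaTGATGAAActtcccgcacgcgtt
Chac1: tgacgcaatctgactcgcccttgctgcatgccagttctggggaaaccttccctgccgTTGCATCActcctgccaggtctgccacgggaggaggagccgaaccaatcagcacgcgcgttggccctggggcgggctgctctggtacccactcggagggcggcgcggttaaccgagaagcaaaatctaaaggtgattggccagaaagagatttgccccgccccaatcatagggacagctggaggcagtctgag
Trib3: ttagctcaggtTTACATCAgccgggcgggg

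Several arrays stood apart before any comparison of these genes. Muscle and skin genes were bright in transgenic embryo 1 and, less so, in wild-type embryo 3. The mean log2 intensity of 11 muscle genes was 9.74 and 8.43 in these embryos, against 7.02 to 7.11 in the other 4, and that of 9 skin genes was 8.79 and 7.86, against 7.28 to 7.34. Both lists had members below the median probe in every embryo, Ckm among the muscle genes and Sfn and Perp among the skin genes. These are also the only embryos with an animal number under 100 in the labels, the others being numbered over 200. The labels do not say what the number means. Midbrain and hindbrain genes were brightest in wild-type embryo 2, where En2 reached a log2 intensity of 12.23, against 7.01 to 10.98 elsewhere. Of 10 cortical neuron markers 7 had a probe, all brighter than the median probe. Their mean varied between embryos, at 10.61, 10.71 and 9.43 in transgenic and 9.93, 9.07 and 10.39 in wild-type embryos. Within that list Dcx, a marker of young neurons, stood at 12.44, 12.93 and 12.76 in transgenic and 13.14, 12.97 and 13.11 in wild-type embryos. All transgenic values of Dcx lay below all wild-type ones (difference -0.36, limma adjusted p = 0.759). Sox5, of deep-layer neurons, ran from 9.58 in wild-type embryo 2 to 12.50 in transgenic embryo 2, with a difference of 0.96. By genotype, 10 of 11 muscle, 7 of 9 skin and 4 of 7 cortical neuron genes were higher on average in transgenic embryos. The median differences of these lists were 0.48, 0.32 and 0.81. Genes of 4 further lists were mostly or all higher. Meninges and fibroblast genes were higher on average in transgenic embryos for 10 of 10 with a probe (median difference 1.81), and their mean level was 11.12, 9.29 and 9.45 in transgenic against 9.28, 7.99 and 7.99 in wild-type embryos. Microglia and macrophage genes were higher for 9 of 9 (median 0.59), with 6 whose groups did not overlap and list means of 8.31, 8.55 and 8.43 against 8.13, 7.62 and 7.61. Endothelial genes were also higher for 9 of 9 (median 0.56), with means of 9.22, 8.76 and 9.16 against 8.83, 8.38 and 8.35. In these 3 lists wild-type embryo 1 stood above the other wild-type embryos. Choroid plexus genes were higher for 7 of 9 (median 1.20), with 4 whose groups did not overlap. Their list means ran from 8.60 to 10.13 in transgenic and from 7.40 to 8.79 in wild-type embryos. The list means of endothelial and of choroid plexus genes thus overlapped between genotypes. In limma's test 0 genes of these 4 lists passed the adjusted threshold. In the order given, 6, 7, 4 and 4 of them were higher at an unadjusted p under 0.05, beside 3.21% of all genes. Groups did not overlap, with higher transgenic values, for 5.5% of all genes. The marker lists were chosen with earlier results of these data known. Of the genes in these 4 lists only Kdr (endothelium) and Kl (choroid plexus) lay below the median probe in every embryo. The transgene was not analysed here, since the annotation gives 0 probes the name Cyfip1, and so it did not check the labels. In bulk tissue, fewer cells of a type and less RNA per cell cannot be told apart.

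The contrast of transgenic with wild-type embryos asked whether expression of the amino acid stress programme differed with the insert that spans Cyfip1. No member passed the adjusted threshold. By the brightest probe of each gene, 4 members lay higher and 6 lower in transgenic embryos, where 46.4% and 53.6% of all genes did, with differences from -0.24 to 0.43 on the log2 scale and a median of -0.09, against -0.01 over all 16593 genes. In limma's test with Benjamini-Hochberg adjustment over all 25697 probes, the smallest adjusted p among the 14 probes was 0.759. The same test called 0 of 25697 probes (0%). At an unadjusted p under 0.05 it gave 749 higher probes (2.91%) and 880 lower ones (3.42%). 1 member, Ddit4, had an unadjusted p under 0.05 with a higher value in transgenic embryos, where 3.21% of all genes did, and no member did in the lower direction, where 3.68% of genes did. Groups did not overlap for 1 member that was higher and 2 that were lower, beside 5.5% and 7.02% of all genes. With only the 4 embryos numbered over 200, 3 members lay higher and 7 lower, and the median difference was -0.07. The median was 0.01 without wild-type embryo 2.

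**Figure D1:**
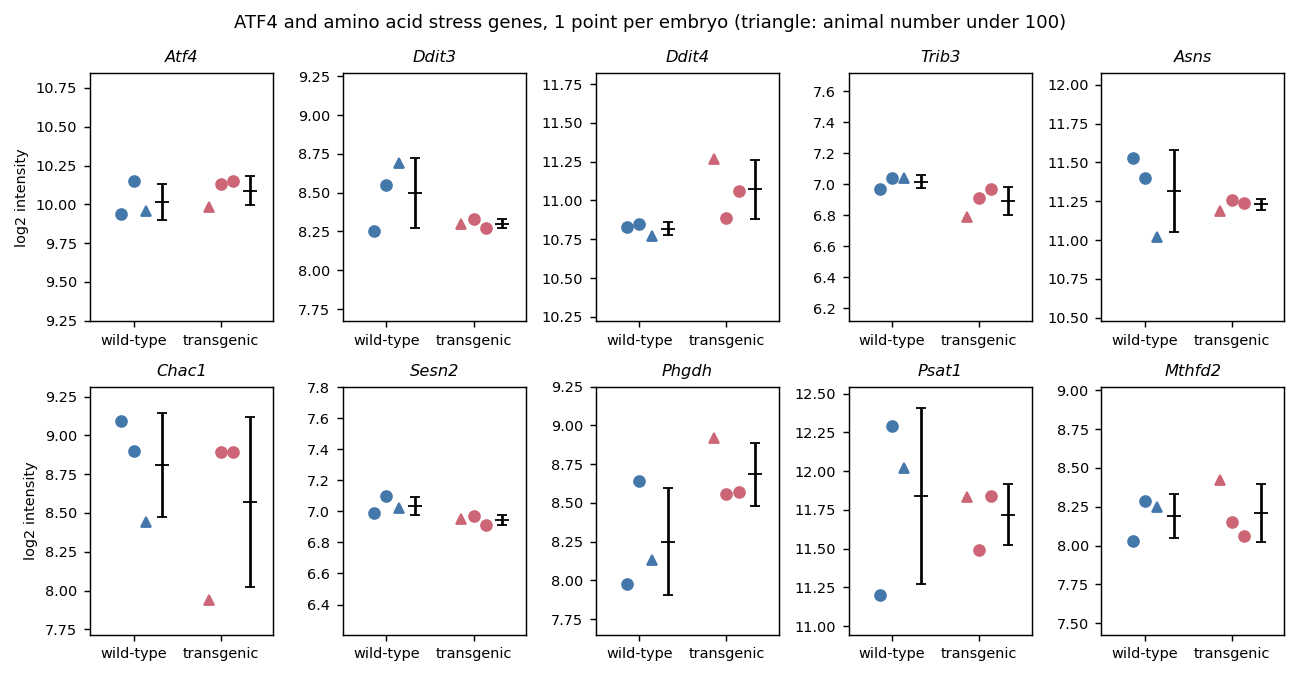
Log2 intensity of the brightest probe of each of the 10 genes in 3 wild-type (blue) and 3 transgenic (red) embryos. Each point is 1 embryo, triangles are the embryos with an animal number under 100, black bars are the group mean and SD, and every panel spans the same number of log2 units. Only Ddit4 has all transgenic points above all wild-type points, and Chac1 is lowest in the triangle of each group.

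Atf4, which encodes the transcription factor at the head of the programme, was nearly level across the 6 embryos. Its log2 intensity was 9.98, 10.13 and 10.15 in transgenic embryos 1 to 3 and 9.94, 10.15 and 9.96 in wild-type embryos 1 to 3. The groups overlapped, with means of 10.09 ± 0.09 and 10.02 ± 0.12 (SD, n = 3 each). The difference was 0.07 with an unadjusted 95% interval of -0.15 to 0.29 (limma adjusted p = 0.893). On a linear scale that interval runs from 0.900 to 1.22 times the wild-type level.

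Ddit3 encodes CHOP, a C/EBP family protein that ATF4 induces and that acts with it in prolonged stress. Its brighter probe stood at 8.30, 8.33 and 8.27 in transgenic and 8.25, 8.55 and 8.69 in wild-type embryos. The transgenic values lay close together, between wild-type embryo 1 and the other wild-type embryos, and the difference was -0.20 (SE 0.12, limma adjusted p = 0.780). It was -0.32 without wild-type embryo 1 and -0.10 without wild-type embryo 3. The second probe did not share the sign, with a difference of 0.03 (SE 0.09). Trib3, a pseudokinase that ATF4 and CHOP induce and that binds ATF4 in turn, was dim, at 6.79, 6.91 and 6.97 in transgenic and 6.97, 7.04 and 7.04 in wild-type embryos. This lay below the median probe, whose level was 7.18, so a change in Trib3 may be compressed by background. The groups were separated by 0.009, and the difference was -0.13 (SE 0.07, limma adjusted p = 0.777).

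Of Ddit4 and Sesn2, the members that restrain mTORC1, Ddit4 differed most from 0 relative to its spread. Ddit4 encodes REDD1, which acts through the TSC complex and is also induced by hypoxia and glucocorticoids. Its log2 intensity was 11.27, 10.89 and 11.06 in transgenic embryos and 10.83, 10.85 and 10.77 in wild-type embryos. All transgenic values lay above all wild-type values, but the lowest transgenic value exceeded the highest wild-type one by 0.05. Transgenic embryo 1, the one brightest for muscle and skin genes, was the highest. Wild-type embryo 3, the next brightest for those genes, was the lowest at 10.77. The means were 11.07 ± 0.19 and 10.82 ± 0.04 (SD, n = 3 each), a difference of 0.26 or 1.20-fold (95% interval of the log2 difference 0.004 to 0.51, unadjusted p = 0.0477, limma adjusted p = 0.759). The difference was 0.16 without transgenic embryo 1, 0.50 between the 2 embryos numbered under 100 and 0.14 among the 4 numbered over 200. The part of muscle and skin RNA in it, and of the 4 further cell types whose genes were mostly or all higher in transgenic embryos, was not tested.

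Sesn2 encodes sestrin 2, a leucine sensor that holds back mTORC1. Both of its probes were dimmer than the median probe. The brighter stood at 6.95, 6.97 and 6.91 in transgenic and 6.99, 7.10 and 7.02 in wild-type embryos, groups that were separated by 0.01. The difference was -0.09 (SE 0.07, limma adjusted p = 0.805), and that of the second probe was 0.00 (SE 0.07). As for Trib3, background may compress a change at this brightness.

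**Figure D2:**
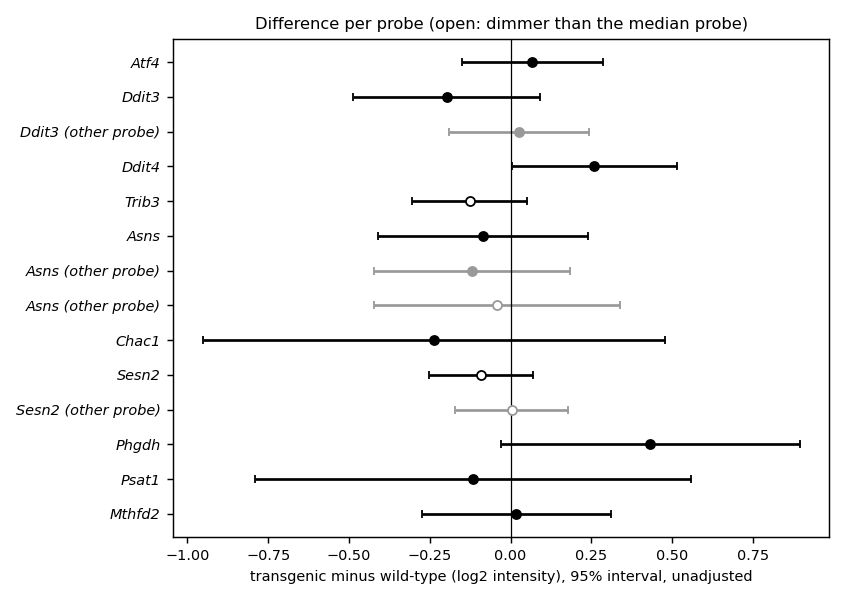
Transgenic minus wild-type log2 intensity for all 14 probes, with the unadjusted 95% interval from limma. Black marks the brightest probe of a gene, grey its other probes, and open symbols probes dimmer than the median probe. The interval of Ddit4 begins just above 0, and those of the other 13 probes include 0.

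The serine and folate pathway members differed in sign. Phgdh, the first enzyme of serine synthesis from glucose and in developing cortex a gene of radial glia, had the largest difference of the 10. Its log2 intensity was 8.92, 8.56 and 8.57 in transgenic and 7.98, 8.64 and 8.13 in wild-type embryos. Wild-type embryo 2 lay within the transgenic values, so the groups overlapped. The means were 8.68 ± 0.20 and 8.25 ± 0.35 (SD, n = 3 each), a difference of 0.43 or 1.35-fold (95% interval 0.980 to 1.86, limma adjusted p = 0.759). The sign was the same within both ranges of animal number, at 0.79 under 100 and 0.25 over 200. The mean of 10 radial glia genes, relative to the 6-embryo mean, ran from -0.13 to 0.10 in transgenic and from -0.12 to 0.17 in wild-type embryos.

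Psat1, which makes phosphoserine from the product of Phgdh, differed in the opposite direction and varied more between wild-type embryos than between groups. It stood at 11.83, 11.49 and 11.84 in transgenic and 11.20, 12.29 and 12.02 in wild-type embryos, so that the lowest and the highest of all 6 values were both wild-type. The difference was -0.12 (SE 0.28, limma adjusted p = 0.942). Wild-type embryo 2, the highest for Psat1, was also the brightest for midbrain and hindbrain genes (mean 1.24 relative to all embryos), and wild-type embryo 1, the lowest, was the dimmest for them (-0.89). The part of regional tissue in the Psat1 values was not tested. Mthfd2, a mitochondrial folate enzyme that uses the one-carbon units of serine, stood at 8.42, 8.15 and 8.06 in transgenic and 8.03, 8.29 and 8.25 in wild-type embryos. The difference was 0.02 (SE 0.12, limma adjusted p = 0.982). Phgdh, Psat1 and Mthfd2 shared their lowest embryo, wild-type embryo 1, which was also the lowest for Atf4 and Ddit3.

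The lowest values of Asns and Chac1 were those of the embryos numbered under 100, of both genotypes. Asns makes asparagine from aspartate and glutamine and is a classic target of amino acid shortage. Its brightest probe stood at 11.19, 11.26 and 11.24 in transgenic and 11.53, 11.40 and 11.02 in wild-type embryos. The transgenic values again lay close together, inside the wild-type range, and the difference was -0.08 (SE 0.14, limma adjusted p = 0.913). The other 2 probes gave -0.12 (SE 0.13) and -0.04 (SE 0.16). In all 3 probes wild-type embryo 3 was the lowest and transgenic embryo 1 the next, which are the embryos numbered under 100.

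Chac1 encodes an enzyme that degrades glutathione and is induced by ATF4, ATF3 and CHOP. It stood at 7.94, 8.89 and 8.89 in transgenic and 9.09, 8.90 and 8.44 in wild-type embryos, the widest range of the 10 genes. The difference between genotypes was -0.24 (95% interval -0.95 to 0.48, limma adjusted p = 0.883) and was 0.08 without transgenic embryo 1. The embryos numbered under 100 averaged 8.19 and the other 4 averaged 8.94 ± 0.10 (SD), which is 1.68 times as much on a linear scale. For Asns the same ratio was 1.19, 1.18 and 1.27 by its 3 probes. Of the 14 member probes, 4 had both embryos numbered under 100 below the other 4, beside 12.4% of all probes. These were the 3 probes of Asns and that of Chac1, so by gene they were 2 of the 10 members. Whether the members differed from all probes in this was not tested. 0 member probes had both above, beside 11.2% of all probes. Each range of animal number holds both genotypes in equal number. This split was examined after the values had been seen, and the same embryos were the ones bright for muscle and skin genes, so animal number and those tissues cannot be told apart here.

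**Figure D3:**
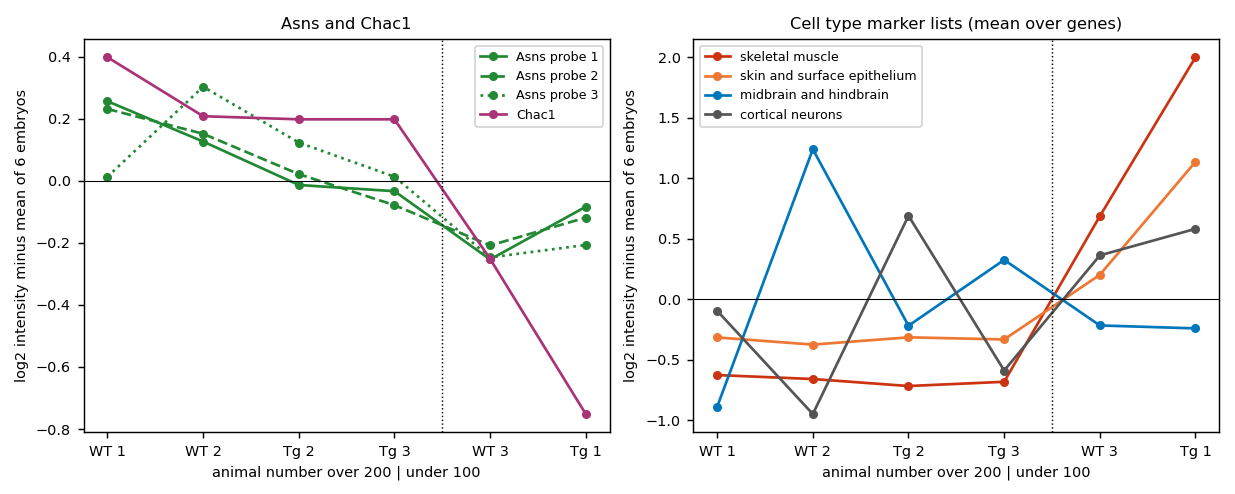
Left, log2 intensity of Chac1 and of the 3 Asns probes in each embryo minus the mean of the 6 embryos, with the embryos numbered under 100 to the right of the dotted line. Right, the same for the mean of 4 marker lists. Asns and Chac1 are lowest in wild-type embryo 3 and transgenic embryo 1, the embryos where muscle and skin markers lie above 0. The brightest Asns probe also lies below 0 in transgenic embryos 2 and 3, and the next brightest in transgenic embryo 3.

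The wider programme was described with longer lists. Of 30 further ATF4 and CHOP targets with a probe, 16 lay above 0 and 14 below, while 46.4% of all genes lay above 0. 0 passed in either direction, and the median difference was 0.02. The genes of smallest p were Nupr1, Eif4ebp1, Cebpb and Aldh1l2. Nupr1, a stress-induced chromatin protein, stood at 9.28, 8.77 and 8.64 in transgenic and 8.68, 7.49 and 7.44 in wild-type embryos. The groups overlapped through wild-type embryo 1, and the difference was 1.02 (SE 0.36, limma adjusted p = 0.759). Eif4ebp1, which encodes the eIF4E-binding repressor 4E-BP1 that mTORC1 inactivates, had groups that did not overlap, at 10.12, 8.88 and 9.11 against 8.63, 7.92 and 8.80. Its difference was 0.92 (SE 0.37). Groups did not overlap for 2 of the 30, Eif4ebp1 and Cebpb, both higher, beside 5.5% of all genes. Cebpb, a C/EBP partner of ATF4 that inflammatory signals also induce, differed by 0.80 (SE 0.35), and transgenic embryo 1 was the highest for both Eif4ebp1 and Cebpb. Without that embryo Eif4ebp1 differed by 0.54 and Cebpb by 0.40, and without wild-type embryo 2 as well by 0.28 and 0.31. Wild-type embryos 2 and 3 were the lowest for Nupr1, as they were for the mean of the meninges, microglia and endothelium lists. The part of these cell types in Nupr1, Eif4ebp1 and Cebpb was not tested. Aldh1l2, a mitochondrial folate enzyme, differed by -0.40 (SE 0.18), and its second probe by -0.35. The 9 amino acid transporters of this list, 4 above 0 and 5 below, all had overlapping groups. They ran from -0.16 for Slc1a4 (SE 0.20) to 0.21 for Slc7a11 (SE 0.35), the cystine carrier, with Slc7a5, the leucine carrier, at -0.03 (SE 0.13).

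Genes that charge tRNA with amino acids, which ATF4 induces together, showed no common direction. Of 16 with a probe, 8 lay above 0 and 8 below (median 0.00), and 0 passed. Wars, the tryptophan enzyme, stood at 10.23, 10.20 and 10.03 in transgenic and 10.41, 10.27 and 10.44 in wild-type embryos, a difference of -0.22 (SE 0.09, limma adjusted p = 0.759). 3 further Wars probes differed by -0.13 to 0.02. Mars1, the methionine enzyme, differed by -0.25 and its other probe by 0.07, while Qars, the glutamine enzyme, differed by 0.25 and Sars, the serine enzyme, by -0.10. Without wild-type embryo 3 Mars1 was -0.12, and without transgenic embryo 1 Qars was 0.12.

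Of 12 genes of the eIF2 kinases and their circuit, 6 lay above 0 and 6 below (median 0.01). Groups did not overlap for 1 that was higher and 2 that were lower, beside 5.5% and 7.02% of all genes. Eif2ak2 encodes PKR, the eIF2 kinase that double-stranded RNA activates and interferon induces. It stood at 8.80, 8.33 and 8.22 in transgenic and 7.77, 7.67 and 7.66 in wild-type embryos. The groups were apart by more than the range within wild-type embryos but by less than the range within transgenic ones. The difference was 0.75 or 1.68-fold (SE 0.16, unadjusted p = 0.00238, limma adjusted p = 0.759), and it kept its sign in each of the 16 alternatives, from 0.55 to 0.87. Eif2ak2 was named for its small p in these same arrays, so the kept sign is no further support. The microglia, endothelium and meninges lists were also higher in transgenic embryos, and their part in Eif2ak2 was not tested. Eif2ak3, the kinase PERK of the endoplasmic reticulum, differed by -0.10 (SE 0.08). Impact, an inhibitor of the amino acid sensing kinase GCN2, stood at 10.27, 10.25 and 10.31 in transgenic and 10.45, 10.42 and 10.53 in wild-type embryos, a difference of -0.19 (SE 0.07, limma adjusted p = 0.759). Eif2s2, the beta subunit of eIF2, differed by -0.12.

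The other arms of the unfolded protein response were taken from 16 chaperone and ATF6 or XBP1 genes, 12 of them above 0 and 4 below. Their median was 0.09, and 0 passed the threshold. Pdia3, a disulfide isomerase that also serves MHC class I assembly, stood at 12.50, 12.09 and 12.36 in transgenic and 11.98, 12.02 and 11.90 in wild-type embryos. Its difference was 0.35 (SE 0.12, limma adjusted p = 0.759). Dnajc3, an inhibitor of PERK and PKR, differed by 0.31 (SE 0.10). Its lowest transgenic value, 8.25, lay just above its highest wild-type value, 8.21. Groups did not overlap for 2 of the 16, Pdia3 and Dnajc3, both higher, beside 5.5% of all genes. The chaperone Hspa5, or BiP, differed by 0.22 and Creld2 by 0.21, both with overlapping groups.

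Among 14 serine, glycine and folate enzymes, 9 lay above 0 and 5 below (median 0.04). Beside Phgdh and Aldh1l2, the genes of smallest p were Aldh1l1, a cytosolic folate enzyme of radial glia and astrocytes, at -0.51 (SE 0.22), and the dim Mthfd2l at -0.11. All 4 Aldh1l1 probes had a negative difference, the further ones at -0.58, -0.49 and, for a probe dimmer than the median, -0.10. Of 20 sestrin, REDD and amino acid sensor genes of mTORC1, 10 lay above 0 and 10 below (median 0.00). Castor1, an arginine sensor, stood at 7.68, 7.45 and 7.44 in transgenic and 7.13, 7.06 and 7.11 in wild-type embryos, a difference of 0.42 (SE 0.09, unadjusted p = 0.00238, limma adjusted p = 0.759). All wild-type values lay below the median probe, whose level was 7.18, where background may compress a change. With normexp Castor1 differed by 0.56. Its homologue Castor2 differed in the opposite direction, by -0.22 (SE 0.10), and Mtor itself by -0.50 (SE 0.09, limma adjusted p = 0.759), with a dim second probe at -0.06. Groups did not overlap for 2 of the 20 that were higher, Castor1 and Ddit4, and for 3 that were lower, Mtor, Castor2 and Sesn2, beside 5.5% and 7.02% of all genes.

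**Figure D4:**
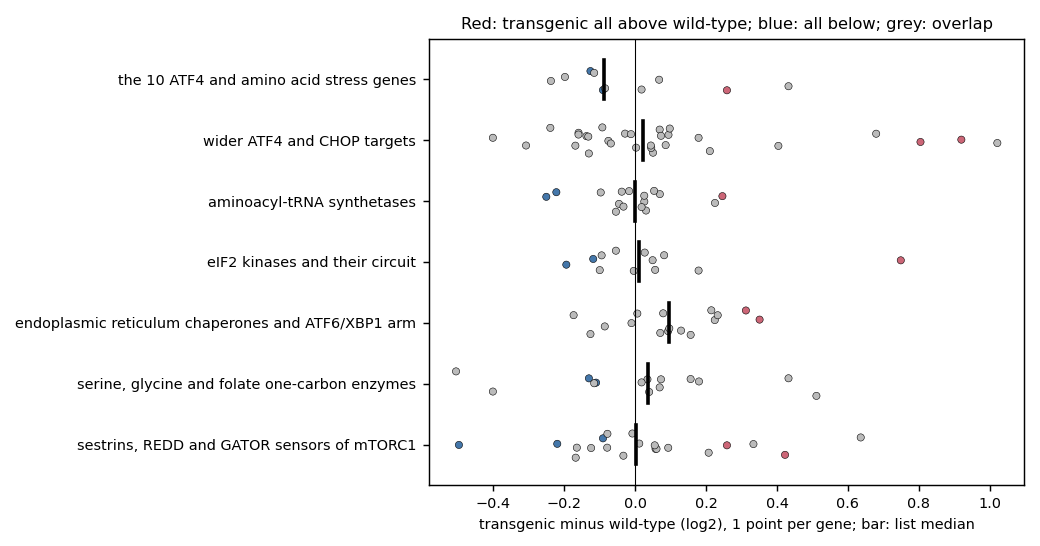
Transgenic minus wild-type log2 intensity of each gene in the 10-gene set and 6 longer lists, 1 point per gene by its brightest probe, with a black bar at the list median. Red and blue points are genes whose groups do not overlap. The medians lie between -0.09 and 0.09, and the largest values are those of Nupr1 and Eif4ebp1.

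Over the embryos, the 10 genes were highest on average in wild-type embryo 2, at 0.15 above their own means with 9 of 10 genes above, and lowest in wild-type embryo 1, at -0.09 with 3 of 10 above. The 3 transgenic embryos lay between -0.02 and 0.02. The embryo with the highest and the one with the lowest average were therefore both wild-type. The members did not share 1 profile. Pearson's r between pairs of them ran from -0.86 for Ddit4 and Trib3 to 0.77 for Ddit4 and Phgdh.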

How the data were processed

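The deposited scanner table holds 1 linear intensity per probe and array, not background-subtracted judging by its lowest value of 72.8. BeadStudio is the tool in the submitters' processing notes, with no version. The authors' second deposited table holds log2 values. Set against the scanner intensities, they match quantile normalization of the log2 intensities to within 5e-09, with a median of 7.18 in every array. These deposited log2 values were the main values and were not normalized again. Every probe was fitted with limma 3.58.1 in R 4.3.3 (lmFit, eBayes, two-sided, no covariate), adjusted by Benjamini-Hochberg over 25697 probes with a threshold of 0.05. The fit was also run on simulated arrays with independent noise of SD 0.1 on the log2 scale. The median SD of the members over the 6 arrays was larger, at 0.178, so that run does not show what the fit can detect here. An exact permutation test of 3 against 3 cannot give a p under 0.1. 23978 probes had 1 gene name, 0 several and 1719 none. Names and promoters came from RefSeq (GRCm38.p6), where 23962 probes were found by gene identifier, and 1 listed gene was not matched. A gene was summarised by its probe of highest 6-array mean. Members, lists and alternatives were chosen with earlier results of these data known. From each longer list the text names the 4 genes of smallest p, and the transporters and further probes beside them were picked after their values were seen. Alternatives were normexp with an offset of 50, median scaling, cyclic loess, a brightness filter, an intensity trend, array weights, the animal number range as a block, the mean of a gene's probes and embryos left out. Replicate numbers follow accession order and pair nothing. The labels give each embryo its own animal number.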

Additional observations from a re-analysis of the deposited data

Results flagged for a closer look

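The difference in Asns between transgenic and wild-type embryos had opposite signs in the ranges of animal number. Among the 4 embryos numbered over 200, both transgenic values of the brightest probe lay below both wild-type values, with a mean difference of -0.21, while between the 2 embryos numbered under 100 the transgenic value was higher by 0.17. A second Asns probe gave -0.221 and 0.086 in the same ranges. This difference between the ranges was not tested, and the lower range holds 1 embryo of each genotype.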

How the results depend on the processing

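No member passed the threshold in any of the 16 alternatives, and 147 of 158 values over members and alternatives kept their sign. Atf4, Ddit3, Ddit4, Phgdh, Sesn2 and Trib3 kept theirs wherever they were tested. Mthfd2 turned to -0.043 with array weights, to -0.038 without transgenic embryo 1 and wild-type embryo 2, and to -0.055 among the 4 embryos numbered over 200. Without transgenic embryo 1 and wild-type embryo 2, Chac1 was 0.123 and Psat1 0.054. Leaving out 1 embryo at a time, Asns ran from -0.233 (without wild-type embryo 3) to 0.020 (without wild-type embryo 1), Chac1 from -0.422 (wild-type embryo 3) to 0.078 (transgenic embryo 1), Psat1 from -0.435 (wild-type embryo 1) to 0.110 (wild-type embryo 2) and Mthfd2 from -0.086 (transgenic embryo 1) to 0.094 (transgenic embryo 3). Atf4 ran from 0.03 (wild-type embryo 1) to 0.14 (wild-type embryo 2), while Trib3 was -0.08 without transgenic embryo 1 and Sesn2 -0.06 without wild-type embryo 2. The median over the members ran from -0.08 to 0.01 in these fits. The cause of these turns was not tested. The 21 genes named from the longer lists kept their sign in all 335 values, with none past the threshold. They were picked for small p in these same arrays, so the kept signs follow largely from that choice and are no further support. Sizes also moved by over 1.5 times for Aldh1l2 (-0.22 without transgenic embryo 1), Aldh1l1 (-0.28 without wild-type embryo 2), Castor2 (-0.14 without wild-type embryo 1), Eif2ak3 (-0.05 without transgenic embryo 2) and Sars (-0.18 without wild-type embryo 1, -0.02 without wild-type embryo 2), and the medians of the longer lists ran from -0.04 to 0.15 over these fits.

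Over all probes, an unadjusted p under 0.05 was reached by 749 higher and 880 lower ones. Median scaling gave 1137 higher and 701 lower, the filter on brightness 446 and 451 of 12848 probes, the animal number range as a block 1372 and 1725, and the fit without transgenic embryo 1 and wild-type embryo 2 417 and 481. Leaving out 1 embryo gave 426 to 1006 higher and 566 to 953 lower, with the fewest higher without wild-type embryo 2 and the fewest lower without transgenic embryo 1. The adjusted threshold was passed by 0 to 1 probes, the 1 being Ifitm3 without wild-type embryo 1. Trib3 and Sesn2 fell below the brightness filter and have no value under it. No paired analysis was possible because the replicate numbers come from accession order and not from the labels. Dim probes near background limit what can be read for Trib3 and Sesn2.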

Other observations

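Genes whose profile over the 6 embryos was most like the mean of the 10 members, among 5451 other genes that varied at least as much as the median member, by Pearson's r over the 6 embryos (0.974 to 0.985, no test) were Sdhaf1, Hsd11b2, Lmo1, Hs3st3a1, Nudt18 and Gata3. Their differences between genotypes lay between -0.08 and 0.05. All 6 were highest in wild-type embryo 2 and lowest in wild-type embryo 1, as the members' mean was. The mean of the midbrain and hindbrain genes had the same extremes, at 1.24 and -0.89 relative to all embryos. The part of regional tissue in these profiles was not tested.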
